A study of Mus musculus with 2 samples.

Results

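The 10 genes of major histocompatibility complex (MHC) class II antigen presentation described here were H2-Aa, H2-Ab1, H2-Eb1, Cd74, H2-DMa, H2-DMb1, H2-DMb2, H2-Oa, H2-Ob and Ciita. They were taken by symbol from the 31053 genes counted in 2 single-cell RNA libraries of mediastinal lymph nodes (MedLNs), and all 10 were present. Wild-type C57/B6J mice received 50 µg ovalbumin (OVA) on days 0 and 7, were challenged from day 14 to day 16, and gave their lymph nodes on day 17. One library came from such asthmatic mice without butyrate and the other from such mice supplemented with butyrate, and both groups therefore carried the OVA treatment. The mice of the study were 5 to 13 weeks old, and the route of butyrate for these mice is not given in the sources used here. Cells of 4 mice were pooled in each library, so each condition had 1 library, no difference between mice could be measured, and no test between conditions was possible. All 95% intervals below cover counting error of unique molecular identifiers (UMIs) only.

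MHC class II molecules display peptides from ingested proteins to CD4+ T cells. H2-Aa encodes the α chain and H2-Ab1 the β chain of the mouse I-A molecule, and H2-Eb1 encodes the β chain of I-E. Mice of the C57BL/6 background are known to lack a functional I-E α chain. Cd74, the invariant chain, occupies the peptide groove and carries new class II molecules to the endosome. There H2-DM, made of H2-DMa and either H2-DMb1 or H2-DMb2, helps to exchange the remnant of Cd74 for an antigenic peptide, and H2-DO, made of H2-Oa and H2-Ob, restrains H2-DM. Ciita is the transactivator without which class II genes are hardly transcribed. B cells, dendritic cells and macrophages are the classical class II-expressing cells, plasma cells silence the programme, and resting mouse T cells are not known to express it.

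The 8 H2 members lie within 224 kb of chromosome 17 (bases 34092340 to 34316674, mm10, GENCODE M21 annotation), and Ciita lies on chromosome 16 (10480059 to 10528418, plus strand). Class II promoters are known for an X box, bound by the RFX complex, and a Y box, bound by NF-Y, which together hold Ciita at the gene. RefSeq promoters (GRCm38.p6) were given for 7 of the 10 members. The stretches of 4 of them that hold the Y box are shown. These members differ in how closely they follow the mean of the abundant genes H2-Aa, H2-Ab1, H2-Eb1 and Cd74 across cell classes. H2-Aa and H2-Eb1 are part of that mean, so their closeness to it was largely set beforehand. H2-DMb2 followed it more closely than H2-Ob, which followed it least of all members. Capitals mark GATTGG, a core of the Y box, and AACNNATG, letters shared by 4 of these promoters upstream of the Y box, where the X box lies, with N for any base.

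H2-Aa, chr17:34287851-34287920, minus strand: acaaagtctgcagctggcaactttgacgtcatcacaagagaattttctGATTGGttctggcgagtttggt

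H2-Eb1, chr17:34305759-34305828, plus strand: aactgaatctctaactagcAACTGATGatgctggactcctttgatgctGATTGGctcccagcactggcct

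H2-DMb2, chr17:34145110-34145179, plus strand: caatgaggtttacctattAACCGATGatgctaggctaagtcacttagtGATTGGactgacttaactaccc

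H2-Ob, chr17:34238799-34238868, plus strand: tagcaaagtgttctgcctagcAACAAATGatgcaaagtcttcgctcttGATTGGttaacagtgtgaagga

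The first letters of both motifs were 29 bases apart in H2-Eb1, 30 in H2-DMb2 and 27 in H2-Ob. Searched on both strands in the 250 bases before each start, AACNNATG occurred in 7.71% and GATTGG in 14.6% of 32851 promoters. The pair, with a gap of 5 to 40 bases, occurred in 33 (0.10%), among them those of H2-Eb1, H2-DMb1, H2-DMb2 and H2-Ob. H2-Aa, H2-Oa and the downstream start of H2-DMa held GATTGG without AACNNATG. The upstream start of H2-DMa held neither and had 27 CG pairs in the 250 bases before it. The motif letters were written after these promoters were read, so these counts are a description.

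Cells were placed in 6 classes by single marker genes that are not members. B cells had at least 2 UMIs of Cd79a, and cycling B cells a UMI of Mki67 besides. Jchain+ cells had at least 5 UMIs of Jchain and Lyz2+ myeloid cells at least 5 of Lyz2. Dendritic marker cells had at least 3 of 10 dendritic markers, and T cells at least 2 UMIs of Cd3e. Cells of the other classes had no UMI of Cd3e. Lyz2+, dendritic marker and T cells had none of Cd79a. B, cycling B, Jchain+ and T cells had none of Lyz2, and dendritic marker cells fewer than 5. Both B cell classes had fewer than 5 UMIs of Jchain, while Jchain+ cells could have Cd79a and Mki67. Dendritic markers were not excluded from the other classes. After filtering, 8774 cells remained without and 8013 with butyrate, with medians of 5075 and 5649 UMIs per cell, and 75% and 79.1% of them fell in a class. The libraries shared 25 cell barcodes. B cells numbered 3963 without and 3768 with butyrate, T cells 2430 and 2447, cycling B cells 67 and 41, Jchain+ cells 75 and 25, Lyz2+ myeloid cells 28 and 21, and dendritic marker cells 16 and 33. The labels were checked against other markers: Cd79b had a UMI in 99.1% of B cells without butyrate, Cd3d in 99.2% of T cells, and Mzb1 in 100% of Jchain+ cells. Mzb1 also had a UMI in 68.5% of B cells without and 69.8% with butyrate, so it is a weak check of the Jchain+ label. Jchain+ cells were mixed in their other markers: Sdc1, a plasma cell gene, had a UMI in 46.7% of them without and 28.0% with butyrate, and the B cell gene Ms4a1 (CD20) in 77.3% and 92.0%. Of Lyz2+ cells, 46.4% and 57.1% had a UMI of the macrophage gene C1qa. Levels below are UMIs of the gene scaled to 1000000 UMIs of the summed cells of a class (CPM). Genes are set side by side without division by length, because 3′ counting gives 1 UMI per captured transcript end, whatever the length.

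B cells held most class II RNA. Members made up 1.33% of the UMIs of kept cells without and 1.47% with butyrate, and 88.5% and 89.5% of these member UMIs lay in B cells. In B cells, Cd74 stood highest at 16113 CPM without and 17402 with butyrate. The genes of the I-A chains and of the I-E β chain followed: H2-Aa was at 5022 and 5525 CPM, H2-Ab1 at 4262 and 4759, and H2-Eb1 at 3582 and 3829. The order of these levels was the same in both libraries. The peptide editors lay below all of these. H2-DMa had 660.3 CPM without and 736 with butyrate, H2-DMb2 568 and 629, and H2-DMb1 155 and 180.1. Their inhibitors H2-Ob (471 and 483 CPM) and H2-Oa (372 and 411 CPM) lay between H2-DMb2 and Ciita, which had 265 and 306 CPM. Cd74 had a UMI in 100% and 99.9% of B cells, against 65.2% and 72.7% for Ciita and 50.7% and 57.5% for H2-DMb1.

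**Figure D1:**
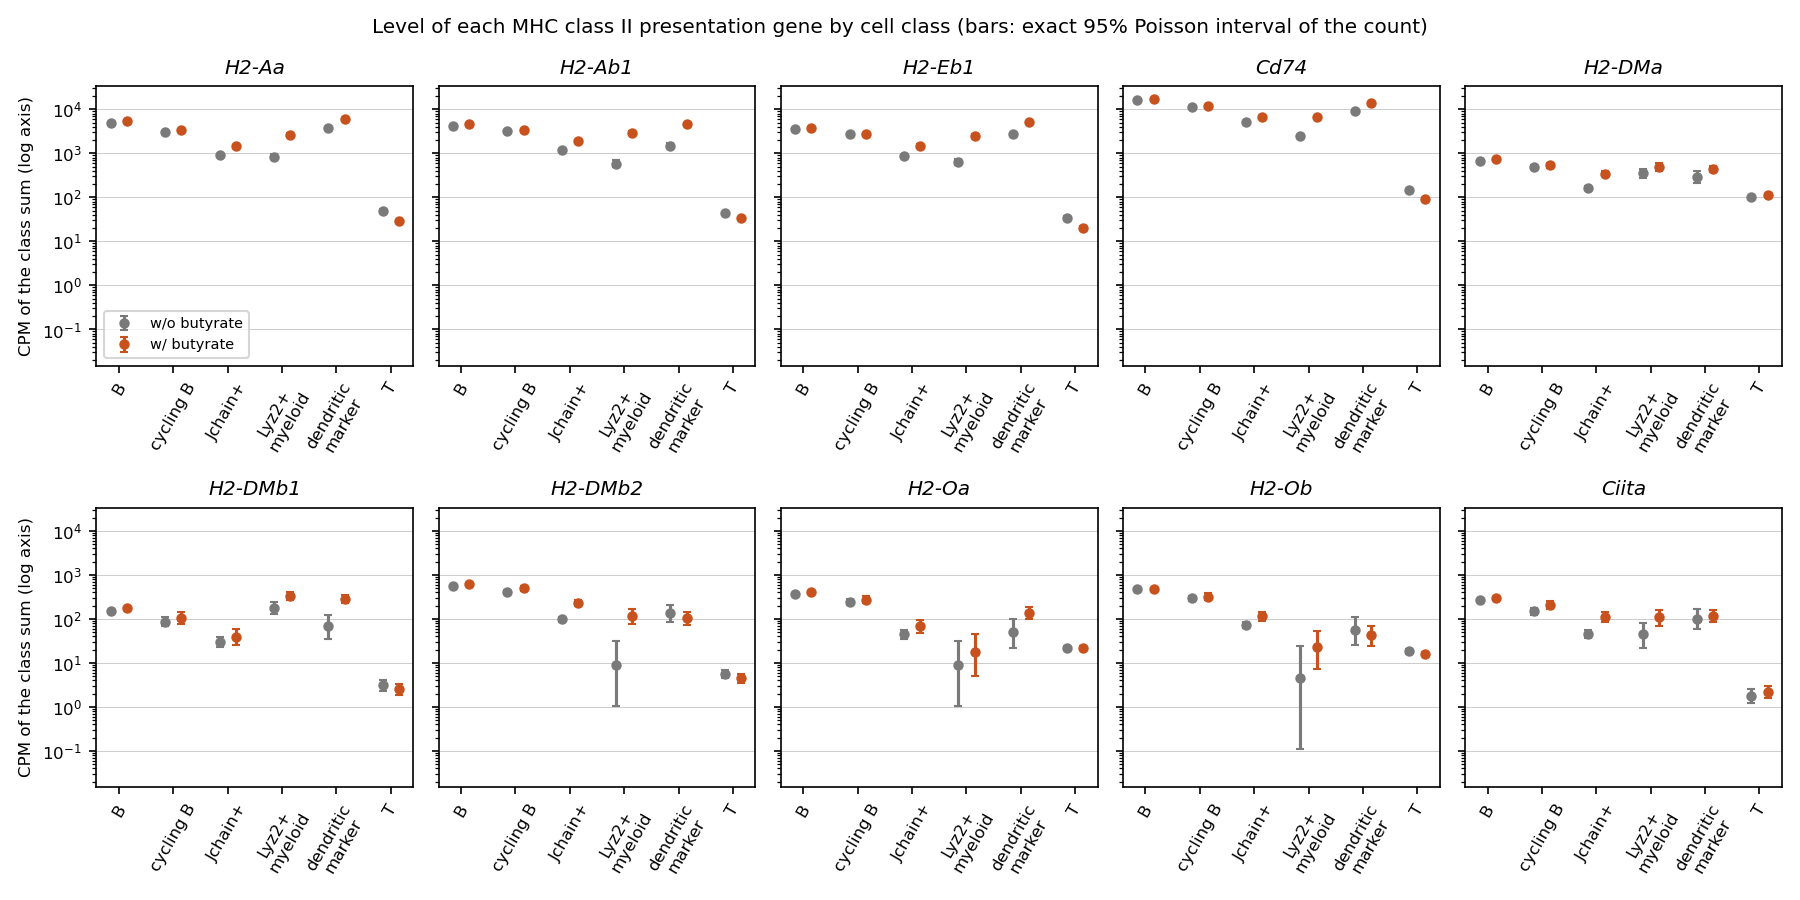
Level of each class II gene in 6 cell classes, as CPM of the summed cells on a log axis, without (grey) and with (orange) butyrate. Points are the 2 libraries and bars exact 95% Poisson intervals. The 4 abundant genes stand at 3582 CPM or more in B cells and at 149.7 CPM or less in T cells, and H2-DMa, H2-Oa and H2-Ob fall less steeply towards T cells.

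All 10 members were higher with butyrate in B cells, by small amounts, as were 6267 of the 10092 genes tested. The log2 ratio with over without butyrate ranged from 0.037 to 0.22, with a median of 0.15, while the median of all genes tested (at least 50 UMIs over both libraries) was 0.041. H2-DMb1 had the highest ratio (0.22, 95% interval 0.15 to 0.29), followed by Ciita (0.21, 0.15 to 0.26) and H2-Ab1 (0.16). H2-Aa stood at 0.14 (0.13 to 0.15), Cd74 at 0.11 and H2-Eb1 at 0.096. The interval of H2-Ob (0.037, -0.0047 to 0.078) reached 0, and the other 9 lay above it. How many of all genes tested had an interval above 0 was not counted. None of the members passed a log2 ratio of 0.5, a fold of 1.41, which 1.80% of the genes tested exceeded upward. A difference of this size between pools of 4 mice has no replicate to set it against.

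The shift ran through the whole distribution of B cells rather than a few cells. With each cell thinned to 2000 UMIs, the summed count of H2-Aa, H2-Ab1, H2-Eb1 and Cd74 per B cell had a median of 60 without and 66 with butyrate. The lower quartile was 50 and 54, the upper quartile 71 and 77, and the 10th and 90th percentiles 41 and 45, and 82 and 88. Fewer than 10 UMIs were found in 5 B cells without and 4 with butyrate. B cells with a UMI each of Ighd (the IgD heavy chain) and Fcer2a (CD23), genes of resting B cells, had the same medians of 60 and 66. B cells with a UMI of Cd86, a costimulatory ligand, had 57 and 62, and those with a UMI of Cd83, which is known to stabilize surface class II, had 61 and 67. B cells with a UMI of Ifit1, Ifit3 or Isg15, which respond to interferon, numbered 587 without and 303 with butyrate, with medians of 57 and 61, and the remaining B cells had 61 and 66. The butyrate library was higher by 4 to 6 UMIs in each of these groups.

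Across single B cells, the abundant genes varied together. Thinned counts of H2-Aa and H2-Ab1 had a Pearson r of 0.41 without and 0.40 with butyrate (3923 and 3751 cells), H2-Aa and Cd74 0.43 and 0.47, and H2-Ab1 and Cd74 0.45 and 0.46. Cd74 with Cd79b, a B cell receptor chain and no member, gave 0.16 in both libraries. Cd74 with Ciita gave 0.097 and 0.076, and H2-Oa with H2-Ob 0.056 and 0.062, where counts per cell were sparse. The cells of a library share its chemistry and the pool of mice, and no p is given.

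Other genes of the pathway were read from a list of antigen processing and costimulatory genes, of which 11 were tested in B cells. With butyrate 6 were higher and 5 lower, none past a log2 ratio of 0.5, with a median of 0.017. Cathepsin S (Ctss), which cleaves Cd74, had 485 CPM in both libraries. Cd83 had the largest ratio, with 303 CPM without and 382 with butyrate (0.33, 0.28 to 0.38). Among 16 regulators, 9 were higher and 7 lower, with a median of 0.028. Rfx5, a subunit of the X box complex, had 21.3 and 25.7 CPM (0.27), and Pax5, the B cell identity factor, 315 and 341 (0.12). Prdm1 (Blimp-1), a repressor of Ciita, was the only regulator past a log2 ratio of 0.5, downward (-0.52, -1.38 to 0.31), but rested on 31 and 22 UMIs, and 1.93% of all genes tested lay as far down.

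Cycling B cells had lower CPM of class II genes than B cells in both libraries. All 10 members were lower, as were 4826 of 9316 genes tested without and 4610 of 9325 with butyrate. The members had a median log2 ratio of -0.54 without and -0.55 with butyrate. None was below -1, a fold of 2, where 7.06% and 7.89% of the genes tested lay. H2-Aa had 3078 CPM without and 3393 with butyrate in cycling B cells (-0.71 and -0.70 against B cells), Cd74 11558 and 11851 (-0.48 and -0.55), and Ciita 149 and 209.6 (-0.83 and -0.55). The members' intervals all lay below 0 in both libraries, a count that was not made for all genes. These cells had a median of 10880 UMIs without and 8384 with butyrate, against 4349 and 4584 in B cells, and the part of RNA content in the CPM was not tested. With each cell thinned, the median count of the abundant 4 genes was 47 and 50.5, against 60 and 66 in B cells. Thinning brought the members' median to -0.37 and -0.30 against B cells, and with butyrate it put H2-DMb1 (0.084), H2-DMb2 (0.12) and Ciita (0.11) above B cells. Between libraries all 10 members were higher with butyrate, as were 1620 of the 3030 genes tested. The members' median log2 ratio was 0.13 and none passed 0.5, against 7.92% of genes upward. The intervals of H2-Aa, H2-Ab1 and Ciita (0.49, 0.087 to 0.90) lay above 0 and the other 7 included it. Of the pathway genes, Cd83 was lower than in B cells by more than 2-fold in both libraries (-1.18 and -1.37) and Rfxank, a subunit of the RFX complex, with butyrate (-1.15). Between libraries H2-Eb2 (47.6 and 76.0 CPM, 0.68) and Cd40 (39.0 and 57.6 CPM, 0.56) were higher and Cd86 (65.9 and 41.5 CPM, -0.67) lower with butyrate, where 7.10% of genes lay below -0.5, but the intervals of all 3 included 0.

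Jchain+ cells had lower levels of all 10 members than B cells, each by more than 2-fold in both libraries. The median log2 ratio was -2.41 without and -1.46 with butyrate, and the share of all genes tested that lay below -1 was 27.3% and 20.2%. H2-Oa lay furthest below its B cell level, at 44.7 CPM without (-3.05) and 68.0 with butyrate (-2.59). Cd74 was the least reduced without butyrate, at 5046 CPM (-1.67), and had 6723 CPM with butyrate (-1.37). The I-A chains were unequal: H2-Aa had 913 and 1487 CPM and H2-Ab1 1171 and 1871, so that H2-Ab1 exceeded H2-Aa here, while H2-Aa was the higher in B cells.

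Within this class the cells differed widely. Summed CPM of H2-Aa, H2-Ab1, H2-Eb1 and Cd74 in a single Jchain+ cell ran from 1219.6 to 35562 without butyrate, with a median of 6739, and from 2163 to 24159.8 with butyrate, with a median of 14117. Cells with a UMI of Sdc1 or Tnfrsf17, genes of plasma cells, were 37 of 75 without and 11 of 25 with butyrate, and they held the lower levels. They were mixed too: Ms4a1 had a UMI in 59.5% without and 81.8% with butyrate, and Mki67 in 67.6% and 72.7%. Among them H2-Aa was at 365 and 1063 CPM, Cd74 at 3261 and 5206, and Ciita at 7.98 and 29.4. Among the other Jchain+ cells H2-Aa was at 1593 and 2179.9 CPM, Cd74 at 7261 and 9205, and Ciita at 92.8 and 245. The log2 ratio of the former cells over the latter was -3.54 for Ciita without butyrate (-4.80 to -2.49, on 8 UMIs in the former) and -3.06 with it (-4.14 to -2.11, on 11 UMIs), and for Cd74 it was -1.15 and -0.82. Without butyrate Cd74 had the smallest reduction of the 10 members between these cells, and H2-DMb2 (-3.55) and Ciita the largest. With butyrate the smallest were those of H2-Ab1 (-0.64) and H2-DMb2 (-0.79), so the order was not the same in both libraries except for Ciita.

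**Figure D2:**
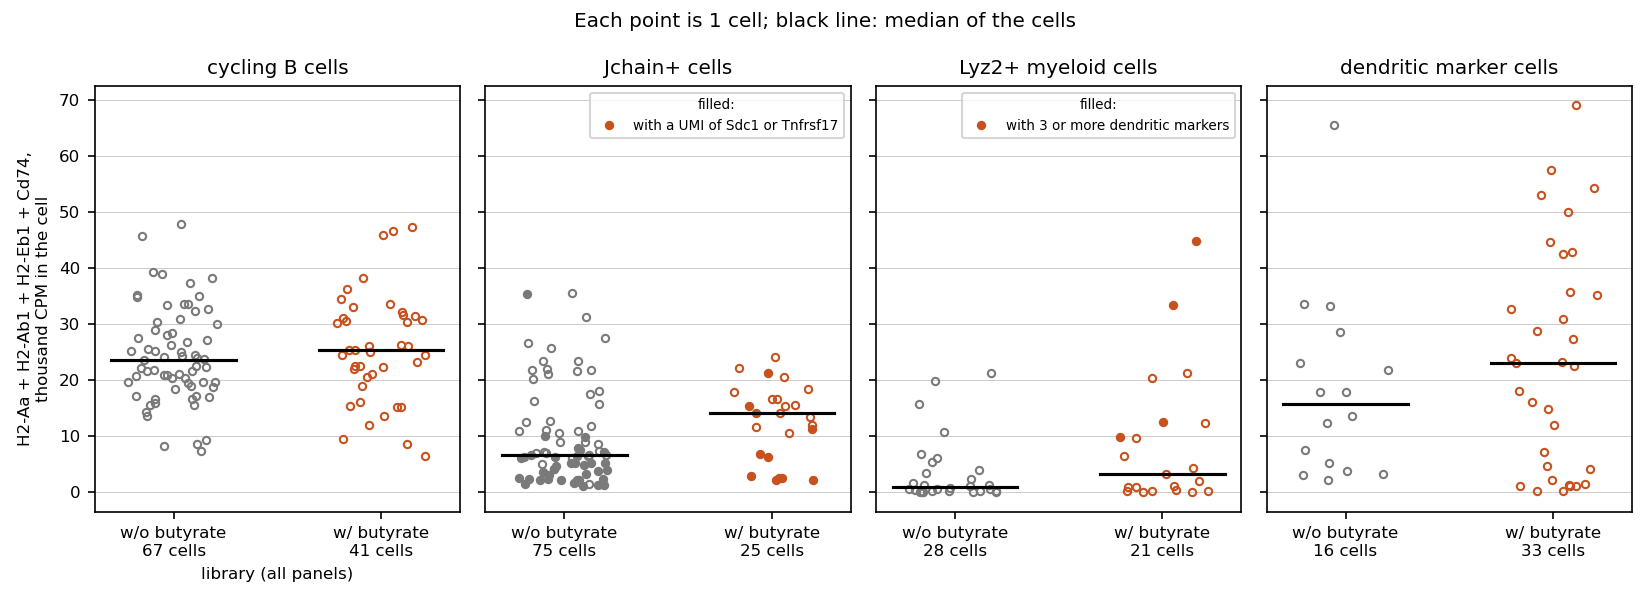
Summed CPM of H2-Aa, H2-Ab1, H2-Eb1 and Cd74 in each cell of the 4 small classes, in units of 1000 CPM, without (grey) and with (orange) butyrate. Each point is 1 cell and the black line the median. Filled points mark Jchain+ cells with a UMI of Sdc1 or Tnfrsf17, which lie mostly below the open points, and the 4 Lyz2+ cells with at least 3 dendritic markers, all with butyrate.

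With butyrate, all 10 members and 2778 of the 4224 genes tested were higher in Jchain+ cells, and 8 members were past a log2 ratio of 0.5, as were 20.3% of those genes. The members' median ratio was 0.69 and that of all genes 0.16. With each cell thinned the median was 0.44 and H2-Oa went to -0.13, and with a minimum of 20 Jchain UMIs H2-Ob went to -0.056. Ciita had 45.8 CPM without and 111 with butyrate (1.28, 0.79 to 1.76), H2-DMb2 97.7 and 229 (1.23, 0.90 to 1.56) and H2-DMa 164 and 348 (1.08, 0.82 to 1.34). Cd74 (0.41) and H2-DMb1 (0.39, -0.37 to 1.11) did not pass. Pax5 (58.5 and 113 CPM, 0.95), Cd83 (44.7 and 94.5 CPM, 1.08), Ifngr1 (19.3 and 51.4 CPM, 1.41) and H2-Eb2 (19.9 and 34.8 CPM, 0.81) were higher with butyrate too, whereas Irf4 (76.7 and 49.7 CPM, -0.63) and Prdm1 (33.1 and 23.2 CPM, -0.51) were lower, as were 8.21% of genes by that much. Irf4 and Prdm1 are factors of plasma cell differentiation, and both Prdm1 (-1.47 to 0.34) and H2-Eb2 (-0.042 to 1.62) had intervals that included 0. The whole list of 8 B cell markers moved with the members, summing to 2132 CPM without and 3317 with butyrate, and the list of 6 antibody-secreting markers, all 6 detected in each library, to 15715 and 11907. Jchain itself, which defines the class, made up most of the latter sum (11122 and 8616 CPM), and Tnfrsf17 of the same list was higher with butyrate (29.8 and 84.5 CPM). The makeup of this class and the level per cell cannot be told apart in these sums. With Sdc1 or Tnfrsf17 the members' median ratio was 1.54 and without them 0.50, and 1 cell held 38.9% of the abundant 4 genes' UMIs in the 11 cells with butyrate. In the cells with Sdc1 or Tnfrsf17, Ms4a1 had 67.8 CPM without and 427 with butyrate, and Jchain 18197 and 13335. Sdc1 had 125 and 77.5 CPM there, and Tnfrsf17 53.8 and 136.

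Other genes of the pathway were in part lower in Jchain+ cells too. Against B cells, 6 of 11 genes of the antigen processing list were lower by more than 2-fold in both libraries, namely Cd83 (-2.76 and -2.02), Cd40 (-2.54 and -1.66), H2-Eb2 (-2.11 and -1.39), March1, a ubiquitin ligase of class II molecules (-2.03 and -1.78), Ctss (-1.43 and -1.31) and Cd86 (-1.37 and -1.07). Cathepsin B (Ctsb) was higher, at 122 CPM without and 96.1 with butyrate (1.65 and 1.4), past the 2-fold mark that 10.4% of genes exceeded in each library. Lgmn, an asparagine endopeptidase of the endosome, had 69.0 and 72.9 CPM, against 68.8 and 69.7 in B cells. Of the regulators, 8 of 16 without and 7 of 15 with butyrate were lower by as much. In both libraries these included Ifngr2, a chain of the interferon-γ receptor (-2.92 and -2.33), Pax5 (-2.43 and -1.60), Irf8 (-1.52 and -1.05), Rfx5 (-1.10 and -1.37), Irf1 (-1.08 and -1.62) and Creb1 (-1.01 in both). Ifngr1 (-1.53) passed this mark without butyrate and Nfya (-1.21) with it, and the difference between libraries was not tested. Prdm1 was higher without butyrate, at 33.1 CPM against 1.57 in B cells (4.39), and was not tested with it.

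Lyz2+ myeloid cells had less of the abundant members than B cells and a different set of editors. H2-Aa had 846 CPM without and 2636 with butyrate, H2-Ab1 589 and 2911, H2-Eb1 643 and 2491, and Cd74 2455 and 6779. Against B cells the members' median log2 ratio was -2.65 without and -1.21 with butyrate, and 8 and 6 of 10 lay below -1, where 13.4% and 15.2% of all genes tested lay. H2-DMb1 was the one member above its B cell level, at 177 CPM without and 334 with butyrate, 0.20 (-0.29 to 0.64) and 0.89 (0.54 to 1.22) against B cells. With a minimum of 20 Lyz2 UMIs per cell the latter became -0.86. The H2-DO chains were close to the limit of detection: H2-Oa had 2 UMIs without and 4 with butyrate, and H2-Ob 1 and 5. Relative to B cells H2-Ob lay at -6.73 (-12.03 to -4.25) and -4.42 (-6.04 to -3.20).

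In Lyz2+ cells 6 members had enough UMIs for a ratio between libraries. All 6 were higher with butyrate, as were 525 of the 1295 genes tested. Of the 6, 5 passed a log2 ratio of 0.5, against 9.65% of genes tested, and the members' median was 1.55. H2-Ab1 had the largest (2.30, 2.03 to 2.58), and H2-DMa did not pass (0.49, 0.057 to 0.92). The members that fell short of 50 UMIs had 2 and 26 UMIs (H2-DMb2), 2 and 4 (H2-Oa), 1 and 5 (H2-Ob), and 10 and 24 (Ciita). A few cells carried these sums. Of the abundant genes' UMIs, 1 cell held 40.5% without and another 31.2% with butyrate, and the median cell had 959 and 3232 CPM. Dendritic markers moved with the result: the 10 together summed to 142 CPM without and 537 with butyrate, Flt3 and Zbtb46 were at 0 without butyrate and in 14.3% of cells with it, and 0 of 28 and 4 of 21 cells had at least 3 of them. The 4 cells had 4094 CPM of H2-Aa and 10513 of Cd74. Without them H2-Aa was at 846 and 1149 CPM, Cd74 at 2455 and 2972, and the members' median ratio was 0.40. With at least 20 UMIs of Lyz2, H2-DMa (-0.50) and H2-DMb1 (-0.61) were lower with butyrate.

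The lysosomal enzymes went the other way in Lyz2+ cells. All 5 processing genes tested were lower with butyrate, past a log2 ratio of -0.5, where 20.7% of genes lay. Ctsb had 2322 CPM without and 853 with butyrate (-1.44), Ctss 2127 and 975 (-1.13), Ctsd 1303 and 659 (-0.98), Ctsz 1347 and 758 (-0.83) and Lgmn 429.9 and 139.9 (-1.62). Of the 8 myeloid markers 6 were lower with butyrate too, Lyz2 itself at 14080.1 and 6878 CPM, Tyrobp at 2916 and 2099, Fcer1g at 2353 and 1512, C1qa at 1312 and 844, Csf1r at 346 and 289 and Ly6c2 at 306 and 58.7. Cst3 (1848 and 3868 CPM) and S100a8 (1799 and 5791) were higher. The S100a8 level with butyrate came from 1 cell, which held all 1283 UMIs. S100a8 had a UMI in 14.3% of Lyz2+ cells without and 4.76% with butyrate. The 4 cells with dendritic markers were in the butyrate library. The part of this makeup in the enzyme levels was not tested. Ifngr2 (155 and 90.3 CPM, -0.78) was also lower. Against B cells, where 20.4% and 18.1% of genes were higher by more than 2-fold, the same enzymes stood high in both libraries, among them Ctsb (5.90 without and 4.55 with butyrate), Ctsd (5.76 and 4.72) and Lgmn (2.64 and 1.01), whereas Cd83 (-4.51 and -3.40) and March1 (-1.79 and -1.81) stood low. Spi1 (PU.1), a myeloid and B cell factor, had 576 and 460.4 CPM in Lyz2+ cells against 111 and 119 in B cells. Pax5 had 0 and 2 UMIs.

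Of the smaller classes outside the B lineage, dendritic marker cells came closest to B cells in the abundant members, and with butyrate H2-Eb1 was above B cells. H2-Aa had 3716 CPM without and 6111 with butyrate (-0.43 and 0.15 against B cells), H2-Eb1 2709 and 5239 (-0.40 and 0.45), H2-Ab1 1492 and 4667 (-1.51 and -0.028) and Cd74 8982 and 13799 (-0.84 and -0.33). Overall 7 members without and 4 with butyrate lay more than 2-fold below B cells, against 14.1% and 17% of genes. Those 4 were H2-DMb2 (-2.59), H2-Oa (-1.57), H2-Ob (-3.51) and Ciita (-1.37). Ciita had 102 and 118 CPM here, below its level in B cells, while H2-Aa in the butyrate library stood above or below B cells by the method, at 0.15 in the summed UMIs and -0.16 with each cell thinned to 2000 UMIs.

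Between libraries, 8 of the 9 members tested were higher with butyrate in dendritic marker cells, as were 580 of the 1315 genes tested. Of the members, 7 passed 0.5, against 15.0% of genes, with a median of 0.72. The median was 0.36 with 1 UMI of the other classes' markers allowed and 0.18 with each cell thinned, where H2-Oa went to -0.093. H2-DMb1 had the largest ratio (70.1 and 288 CPM, 2.04, 1.14 to 3.08) and H2-DMb2 was the one below 0 (134 and 104 CPM, -0.36, -1.17 to 0.49). The makeup of the class differed too. Cells with a UMI of Fscn1 or Ccl22, genes of mature migratory dendritic cells, were 15 of 16 without and 22 of 33 with butyrate. Xcr1, a marker of cross-presenting dendritic cells, had a UMI in 0 of 16 cells without butyrate (upper limit 20.6%) and in 21.2% with it, and Siglech, a marker of plasmacytoid dendritic cells, in 0 of 16 and 18.2%. Within the Fscn1 or Ccl22 cells H2-Aa had 3642 and 4821 CPM (0.40), Cd74 8462 and 9932 (0.23), H2-Ab1 1419.6 and 1542 (0.12, -0.15 to 0.39), H2-DMa 298 and 169 (-0.81, -1.53 to -0.11) and Ciita 104 and 32.8 (-1.66, -3.32 to -0.22). The abundant genes were thus closer between libraries in these cells than in the class as a whole, and H2-DMa and Ciita were lower with butyrate in the summed UMIs. Single cells varied widely. With each cell thinned, the median count of the abundant 4 genes was 31 without and 29 with butyrate, and 3 of 14 and 9 of 21 cells had fewer than 10. The 11 cells with butyrate that lacked Fscn1 and Ccl22 had 7487 CPM of H2-Aa, 17924 of Cd74, 746 of H2-DMa and 209.9 of Ciita. Past 0.5 among the other pathway genes were Ctsl (1 and 86 UMIs, 5.25, 2.73 to 10.57), Irf8 (89.2 and 1267 CPM, 3.83), Ifngr1 (25.5 and 192 CPM, 2.91), Ctsb (0.90, 0.16 to 1.70) and Irf1 (0.79, -0.14 to 1.84) upward and Cd83 (261 and 138 CPM, -0.92) downward, where 20.2% of genes lay. March1 stood low against B cells without butyrate (-3.01), and H2-Eb2 in both libraries (-2.17 and -2.01).

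The β chains of H2-DM were found in different proportions in B cells and myeloid cells. H2-DMb1 made up 21.4% (20.7 to 22.1%) of H2-DMb1 and H2-DMb2 UMIs in B cells without butyrate and 22.2% (21.6 to 22.9%) with it. The share was 17.4% and 17.8% in cycling B cells and 23.7% and 14.8% in Jchain+ cells. In Lyz2+ cells it was 95.2% without butyrate (40 of 42 UMIs, 83.8 to 99.4%) and 74.0% with (74 of 100). The Lyz2+ cells with fewer than 3 dendritic markers had 95.2% and 100% (25 of 25 UMIs, with a count of 0 for H2-DMb2). Dendritic marker cells were split along Fscn1 and Ccl22: with either gene the share was 28.6% without butyrate (8 of 28 UMIs) and 25% with it (5 of 20), and without both it was 81.5% in the butyrate library (97 of 119 UMIs, 73.4 to 88.0%). Cells with UMIs of Siglech had 61.5% (of 13 UMIs) and 90.5% (of 42). The genes are close copies, with 89.2% identity over 334 aligned bases of the last 500, but 87.3% of the 90-base words of H2-DMb1 and 100% of those of H2-DMb2 were absent from the other, so most reads could be told apart. Where reads map to both genes, the counting could have dropped them.

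**Figure D3:**
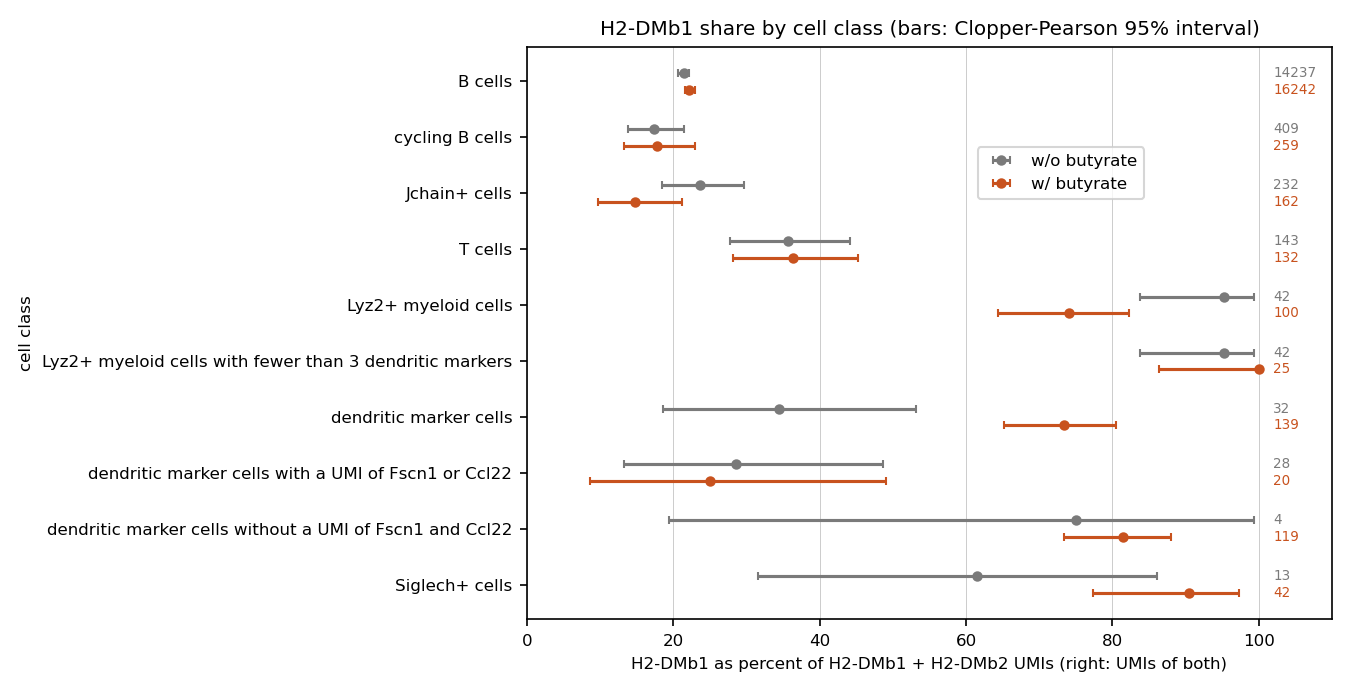
H2-DMb1 as a percent of H2-DMb1 plus H2-DMb2 UMIs by cell class, without (grey) and with (orange) butyrate, with Clopper-Pearson 95% intervals and the number of UMIs at the right. B, cycling B and Jchain+ cells lie between 14.8% and 23.7%, and Lyz2+ cells at 74.0% or more.

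T cells were the low end for all 10 members, each more than 2-fold below B cells in both libraries, against 10.9% and 11.4% of genes, with a median log2 ratio of -6.63 without and -7.14 with butyrate. H2-Aa had 49.9 CPM without and 28.6 with butyrate, H2-Ab1 43.8 and 33.4, H2-Eb1 34.1 and 20.7, and Cd74 149.7 and 92.5. Between libraries H2-Aa (-0.80, -0.96 to -0.64), H2-Eb1 (-0.72) and Cd74 (-0.69) were lower with butyrate past a log2 ratio of 0.5, where 3.24% of genes lay, and H2-Ab1 was lower within it (-0.39). The share of T cells with a UMI pointed the other way, at 16.7% and 19.4% for H2-Aa and 47.4% and 48.8% for Cd74, in cells with medians of 6088 and 7033 UMIs.

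These differences rested largely on 5 of the 2430 T cells without butyrate. They had 725, 569, 188, 56 and 56 UMIs of the 4 abundant genes and together held 34.6% of the T cells' 4607 such UMIs without butyrate, while no T cell with butyrate had more than 31. The highest cell had UMIs of 6 of the 10 dendritic markers and the next of 4, and the third had 27 UMIs of Siglech, beside 7, 2 and 4 UMIs of Cd3e. Whether they were doublets was not tested. Without these 5 cells, a choice made after their values were seen, H2-Aa had 27.4 and 28.6 CPM (0.065, -0.12 to 0.25), H2-Ab1 33.8 and 33.4 (-0.015), H2-Eb1 20.4 and 20.7 (0.028) and Cd74 101 and 92.5 (-0.13, -0.22 to -0.029), and none of these 4 was past 0.5. Of the other members in all T cells, Ciita had 1.81 and 2.17 CPM, H2-DMb1 3.07 and 2.54, and H2-DMb2 5.54 and 4.45. Irf8 (18.5 and 10.9 CPM, -0.76) and Prdm1 (5.72 and 3.39 CPM, -0.76) were the regulators past 0.5, both lower with butyrate.

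**Figure D4:**
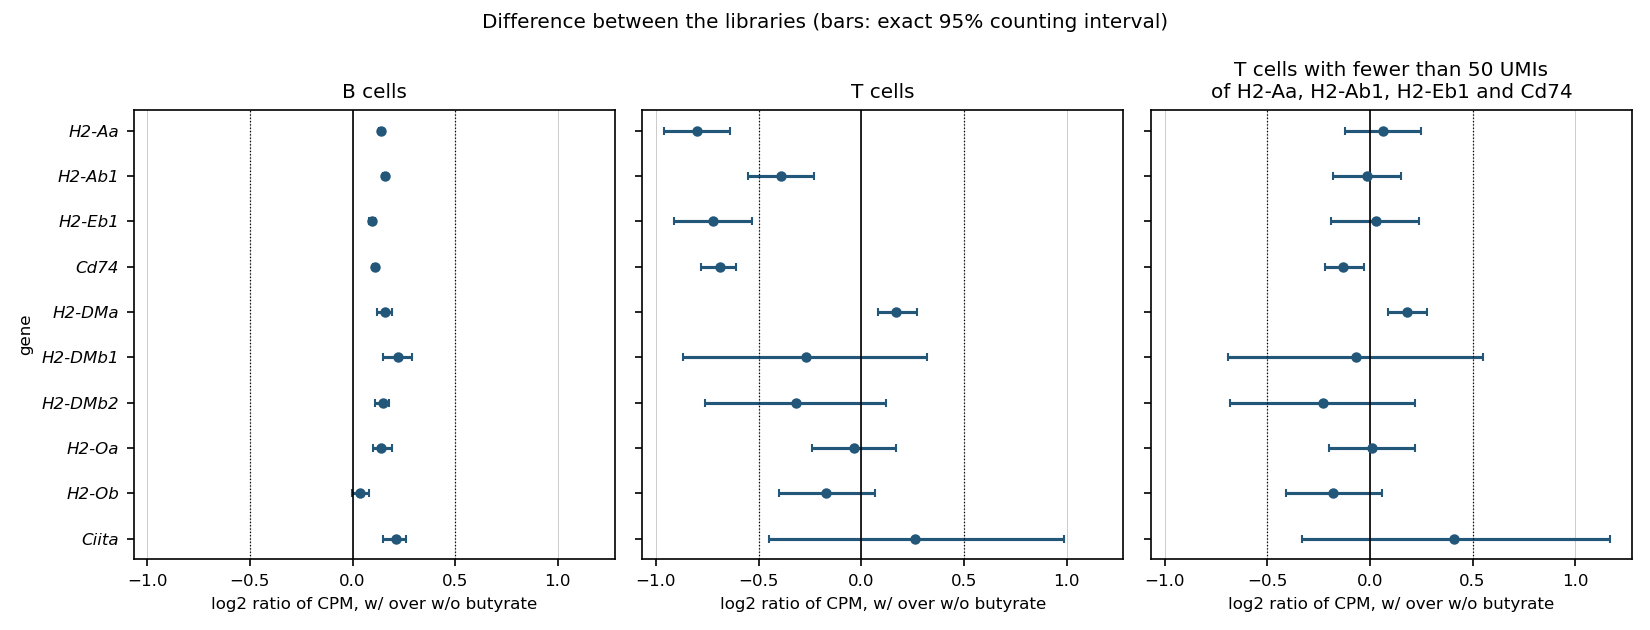
Log2 ratio of CPM with over without butyrate for the 10 members in B cells, in all T cells and in T cells with fewer than 50 UMIs of the 4 abundant genes, with exact 95% counting intervals. Dotted lines mark log2 ratios of 0.5 up and down. In B cells all points lie right of 0, and in T cells H2-Aa, H2-Eb1 and Cd74 move from beyond -0.5 to near 0 once the 5 cells are left out.

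H2-DMa, H2-Oa and H2-Ob behaved differently from the other members in T cells. In droplets, free RNA of abundant cells gives every cell a few UMIs, so the level in T cells was set against that in B cells and compared with 6 B cell markers that T cells should lack. In T cells without the 5 cells, these markers had 0.359% to 1.98% of their B cell CPM without butyrate and 0.280% to 1.29% with it. H2-Aa had 0.545% and 0.518%, Cd74 0.627% and 0.532%, H2-Ab1 0.793% and 0.703%, H2-Eb1 0.568% and 0.542%, Ciita 0.616% and 0.709%, H2-DMb2 0.917% and 0.706%, and H2-DMb1 1.72% and 1.41%. The first 6 of these lay within the range of the B cell markers in both libraries. With the 5 cells included they had 0.681% to 1.03% without butyrate, also within the marker range there (0.357% to 1.97%). A level in the marker range was not told apart from background. H2-DMb1 lay within it without butyrate and slightly above it with butyrate, where its interval (1.04 to 1.87%) included the highest marker value, so it was not told apart from background. With these cells included, H2-DMb1 without butyrate was at 1.98%, against 1.97% for the highest marker, Cd22. Without the 5 cells, H2-DMb1 made up 33.8% (25.8 to 42.7%) of H2-DMb1 and H2-DMb2 UMIs in T cells of the library without butyrate. With butyrate it made up 36.4% (28.2 to 45.2%), and in B cells the shares were 21.4% and 22.2%. Whether free RNA gave the member levels in T cells was not tested. H2-DMa had 15.0% (14.2 to 15.8%) and 15.2% (14.6 to 16%), H2-Oa 5.79% (5.19 to 6.44%) and 5.27% (4.76 to 5.82%), and H2-Ob 3.89% (3.45 to 4.36%) and 3.35% (2.98 to 3.76%). These intervals lay above the highest B cell marker value in both libraries.

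**Figure D5:**
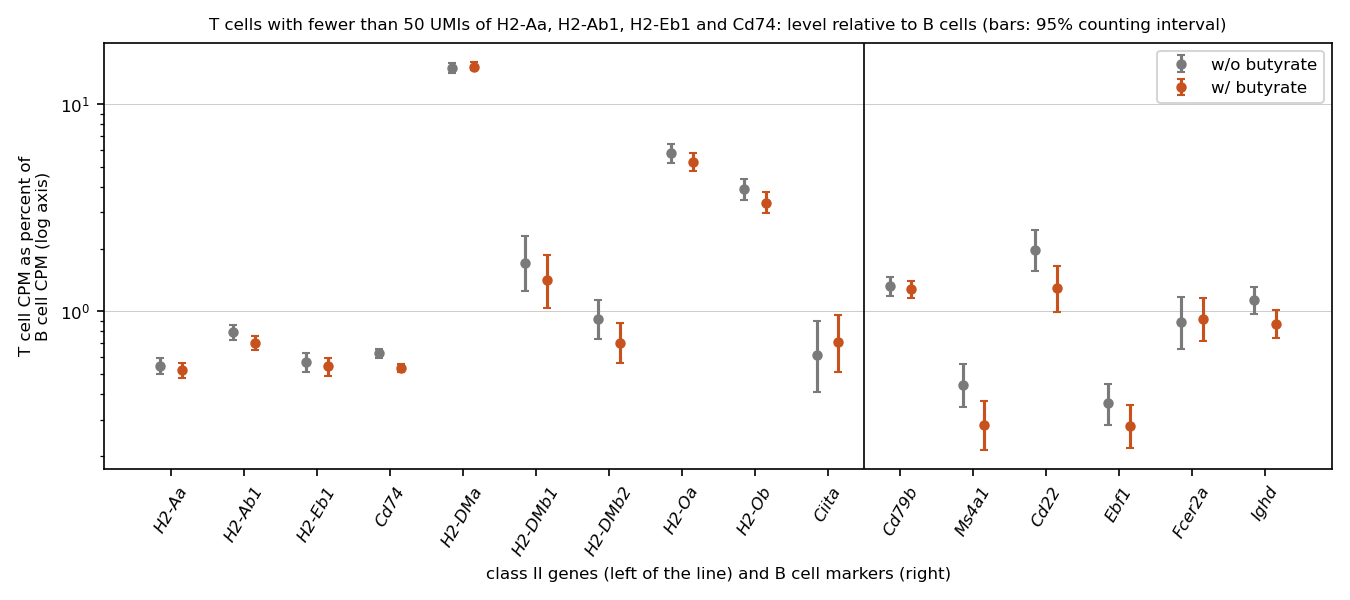
T cell CPM as a percent of B cell CPM on a log axis, for the 10 class II genes (left of the line) and 6 B cell markers (right), in T cells with fewer than 50 UMIs of the 4 abundant genes, without (grey) and with (orange) butyrate, with 95% counting intervals. H2-DMa, H2-Oa and H2-Ob lie above all B cell markers, and the other members lie within their range except H2-DMb1 with butyrate, whose interval includes the highest marker value.

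H2-DMa had 99.5 CPM in T cells without and 112 with butyrate (0.17, 0.080 to 0.27, but -0.012 with each cell thinned), and a UMI in 37.7% of T cells without butyrate. It was higher in T cells with a UMI of Cd8a or Cd8b1 and none of Cd4 than in those with a UMI of Cd4 and none of Cd8a or Cd8b1, at 116 against 72.1 CPM without butyrate (0.69, 0.50 to 0.88) and 137 against 79.9 with it (0.77, 0.60 to 0.95). H2-Oa showed a larger difference, with 29.9 against 11.2 CPM (1.41, 0.95 to 1.91) and 27.6 against 9.25 (1.58, 1.09 to 2.10). H2-Ob followed with 21.1 against 14.9 CPM (0.50, 0.072 to 0.96) and 19.1 against 11 (0.80, 0.33 to 1.30). Cd74 ran the opposite way (-0.63 and -0.31), the former with the 5 cells included. The difference was not particular to the members, since Cd79b, a B cell marker, had 27.4 against 17.5 CPM without butyrate and 28.0 against 16.6 with it. Ms4a1 had 3.79 against 4.18 CPM and 2.96 against 3.41. In the Cd4 cells without butyrate H2-Oa was at 3.02% of its B cell level (2.19 to 4.08%) and H2-Ob at 3.16% (2.40 to 4.10%). The B cell marker Cd22 was at 2.08% there (1.25 to 3.26%). With butyrate H2-Oa was at 2.25% (1.59 to 3.10%), H2-Ob at 2.27% (1.65 to 3.04%) and Cd22 at 1.37% (0.767 to 2.26%). By the rule used for all T cells above, the intervals of H2-Oa and H2-Ob lay above the value of Cd22 in both libraries. They overlapped the interval of Cd22, however, so the distance of both genes from background in Cd4 cells was uncertain. The H2-DMa gene model overlaps Brd2, a bromodomain gene on the opposite strand, which had 109.6 and 112 CPM in T cells and 138 and 145 in B cells. The starts of both genes lie 3093 bases apart, so the overlap is at the start of H2-DMa and not at the transcript end that 3′ counting captures. Whether the counting used strand is not given in the sources used here, and the part of Brd2 reads in the count of H2-DMa was not tested. BC051537, which overlaps H2-Oa, had 11 and 7 UMIs in T cells.

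The genes most like the abundant members across the 6 classes and 2 libraries were sought among 4880 genes with at least 50 CPM in any of these 12 points. Log2(CPM + 10) of Rnase6 had a Pearson r of 0.978 with the mean of H2-Aa, H2-Ab1, H2-Eb1 and Cd74, followed by Napsa (0.961), Far1 (0.938), Rnf216 (0.934), Ly86 (0.925), H3f3a (0.922), Swap70 (0.921), Unc93b1 (0.920), Fgd2 (0.917) and Wdfy4 (0.914). Of the other members, Ciita had 0.963, H2-DMa 0.897, H2-DMb2 0.856, H2-DMb1 0.843, H2-Oa 0.655 and H2-Ob 0.629. The points of 1 library share its chemistry, and classes with few cells weigh as much as B cells. H2-DO thus departed furthest from the abundant genes. It was high in B cells, had 5 UMIs or fewer per chain in Lyz2+ cells, and was above the B cell markers in T cells as a whole.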

How the data were processed

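Single-cell RNA was captured with droplet 3′ chemistry from MedLN cells pooled from 4 mice per library. Per the labels, the authors aligned and counted reads with Cell Ranger 6.0.1 on mm10, and the deposited matrices hold raw UMI counts for each gene and cell barcode (9681 barcodes and 59176459 UMIs without butyrate, 8932 and 58381292 with it). Alignment settings are not given in the sources used here.

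Barcodes were dropped where mitochondrial genes made up over 10% of UMIs or fewer than 200 genes were detected (186 and 327). The highest Scrublet scores, 0.8% of cells per 1000 cells that passed these filters, were removed as doublets (721 and 592). Classes were set by UMIs of marker genes, as the report gives, and no cluster was named. UMIs were summed per class and library and divided by the class total. With 1 library per condition no model or test was fitted. Ratios carry exact conditional binomial 95% intervals, CPM exact Poisson intervals and shares Clopper-Pearson intervals, all for counting error only. Counts and medians were taken over genes whose 2 sums together reached 50 UMIs, and a log2 ratio of 0.5 between libraries or 1 between classes was read as past the fold. The steps were tested on simulated counts. Python 3.11.15, numpy 2.4.6, pandas 2.3.3, scipy 1.17.1, scanpy 1.11.5 and matplotlib 3.10.9 were used.

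Members and lists were chosen with earlier results of these data known. All 10 members were named in every class. From 14 antigen processing genes (12 in the files) and 16 regulators, those past the fold were to be named, with the 10 genes most like the abundant members, and the other values shown from these lists were chosen after they were seen. Subgroups within classes, such as cells with Sdc1, Fscn1 or Cd8a, were also chosen after the data were seen. Alternatives were no doublet removal, other filters and marker minimums, thinning to 2000 UMIs, other scaling, a pseudocount and a higher UMI minimum. Values of some listed genes are not reported here.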

Additional observations from a re-analysis of the deposited data

Results flagged for a closer look

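Members of the abundant group went in opposite directions in B and T cells. All 4 were higher with butyrate in B cells, with intervals above 0, while in T cells the log2 ratio with over without butyrate was -0.80 for H2-Aa, -0.39 for H2-Ab1, -0.72 for H2-Eb1 and -0.69 for Cd74, with intervals below 0. The difference between the cell classes was not tested, since each condition had 1 library. Without the 5 T cells that had at least 50 UMIs of these genes, the ratios were 0.065, -0.015, 0.028 and -0.13, and the interval of Cd74 alone stayed below 0 (-0.22 to -0.029).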

How the results depend on the processing

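The members' 16 medians were recomputed under the alternatives, giving 176 values, of which 136 stayed between the median bounds of the members' counting intervals and 40 moved further. Of the medians whose bounds excluded 0, 0 changed sign. The ratio with over without butyrate in B cells had a median of 0.11 with ribosomal, mitochondrial and immunoglobulin genes left out of the totals. In Jchain+ cells it was 0.44 after thinning to 2000 UMIs, 0.58 under that scaling, and 1.54 and 0.50 with and without Sdc1 or Tnfrsf17. In Lyz2+ cells it was 1.84 with lower and 0.99 with higher marker minimums, 0.59 with 1 UMI of other markers allowed, 1.80 with at least 200 UMIs and 0.40 with fewer than 3 dendritic markers. In dendritic marker cells it was 0.52 with lower minimums, 0.36 with 1 UMI of other markers and 0.18 after thinning.

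Against B cells, without and with butyrate, the median of cycling B cells was -0.81 and -0.84 with higher minimums and -0.37 and -0.30 after thinning. Jchain+ cells had -2.75 and -1.88 with higher minimums, -1.88 after thinning without butyrate, -1.27 with lower minimums with butyrate, and -3.67 and -2.10 with Sdc1 or Tnfrsf17. Lyz2+ cells had -3.04 and -1.87 with higher minimums, -1.96 and -1.47 with 1 UMI of other markers, -3.06 and -1.57 under the other scaling and, with butyrate, -0.94 with lower minimums and -1.47 after thinning. Dendritic marker cells with butyrate had -0.21 with no doublet removal, -0.36 with higher minimums, -0.87 after thinning and -0.84 under the other scaling. T cells without butyrate had -6.83 after thinning, -6.84 without B cell marker UMIs and -6.87 without the 5 cells, and a pseudocount of 10 CPM gave -4.88 and -5.08. The other scaling shifted all genes by -0.41 and -0.35 in Lyz2+ cells over B cells, -0.38 and -0.31 in dendritic marker cells, 0.16 and 0.077 in Jchain+ cells and 0.089 and 0.15 in T cells, and by -0.11 in Jchain+ cells between libraries.

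Of 1394 values for single members, 17 turned the sign of a ratio whose interval excluded 0. After thinning these were H2-Oa in Jchain+ (-0.13) and dendritic marker cells (-0.093) and H2-DMa in T cells (-0.012) between libraries, and with butyrate, against B cells, H2-DMb1 (0.084), H2-DMb2 (0.12) and Ciita (0.11) in cycling B cells and H2-Aa (-0.16) and H2-DMb1 (-0.0096) in dendritic marker cells. With higher minimums these were H2-Ob in Jchain+ cells (-0.056), H2-DMa (-0.50) and H2-DMb1 (-0.61) in Lyz2+ cells, and H2-DMb1 there against B cells (-0.86). In dendritic marker cells against B cells, H2-Aa became -0.040 with lower minimums and -0.17 under the other scaling with butyrate, and without butyrate H2-Aa became 0.069 and H2-Eb1 0.12 with 1 UMI of other markers and H2-Eb1 0.022 with no doublet removal. The cause of these moves was not tested. Cells of the subgroups, the B cell marker setting and the 5 T cells were chosen after seeing the data. No paired analysis was possible because each condition has 1 library. Depth limits members with few UMIs in a class, such as H2-Oa and H2-Ob in Lyz2+ cells and H2-DMb1 in T cells.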

Other observations

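In cells with UMIs of Ncr1, a natural killer cell gene (12 without and 28 with butyrate), H2-DMa stood at 2.57% of its B cell CPM without butyrate (1 UMI, 0.0652 to 14.3%) and 4.53% with it (7 UMIs, 1.82 to 9.33%). In T cells it stood at 15.1% and 15.2%.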
